A study of Mus musculus with 23 samples.

Results

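Metallothioneins and the genes that move or sense zinc were followed as a group of 7 genes in tumors of PyMT mice, out of 47643 genes listed for every library. The 7 are the metallothioneins Mt1 and Mt2, the transcription factor Mtf1, the zinc exporter Slc30a1 and the zinc importers Slc39a14, Slc39a10 and Slc39a6. They were chosen by name, matched through gene identifiers, after Mt1 had been seen lower in tumors treated with anti-IL-38 than in tumors given isotype control. That contrast selected the group, so its values are given here as a description without a test. All 7 were detected and passed the filter on low values in each comparison.

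Metallothioneins are small, cysteine-rich proteins that bind zinc and copper and buffer them in the cytosol. Free zinc activates MTF1, which binds metal response elements and turns on metallothionein genes and the exporter gene Slc30a1. Proteins of the SLC30 family move zinc out of the cytosol, and those of the SLC39 (ZIP) family move it in. In other tissues Mt1 and Mt2 are also known to respond to glucocorticoids, and Slc39a14 to inflammatory cytokines.

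PyMT mice carry the polyoma virus middle T oncoprotein as a transgene and develop mammary carcinomas. All tumors came from female PyMT mice on a C57BL/6 background. In the neutralization experiment, PyMT WT mice whose first tumor had reached 0.6 cm in diameter received weekly doses of 100 µg of IgG1 isotype control (5 libraries) or of the anti-IL-38 antibody (6 libraries) over 5 weeks. In the blockade experiment, treatment began in week 13 of age and lasted 5 weeks. It compared PyMT WT mice with IgG (4 libraries), PyMT IL-38 KO mice with IgG (4 libraries) and PyMT IL-38 KO mice with anti-γδ-TCR antibodies, which block signaling of the γδ T cell receptor (4 libraries), at 500 µg first and 200 µg thereafter. RNA came from whole dissociated tumors and was counted by a 3′ mRNA method, in which a transcript gives reads near its end.

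Each library held 6273049 to 15879164 reads on genes. Il1f10, which encodes IL-38, had 0 reads in all 23 libraries, which allows 0.189 to 0.478 CPM (reads of a gene after scaling every library to an equal total) at 3 counts, so the knockout could not be checked in these data. The 6 luminal epithelial markers had reads in every group, with a summed level of 1339 to 3603 CPM per library. A group of 5 libraries stood apart from the rest: IL-38 KO + IgG replicate 4 and the 4 with anti-γδTCR. They held 6273049 to 8794202 reads against 10138353 to 15879164 in the other 18, and processed pseudogenes took 1.34 to 2.03% of their reads against 0.103 to 0.202%. The single gene Gm42418 took 11.3 to 20.1% of their reads against 2.62 to 5.70%, and these reads count in the CPM total. The results that rest most on IL-38 KO + IgG replicate 4 are therefore given with and without it.

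The promoters of Mt1, Mt2 and Slc30a1 are shown because these are the genes known to be driven by MTF1 through metal response elements. The sequences are the 250 bases before the start in RefSeq on GRCm38.p6, on the plus strand and cut where GENCODE M21 places an earlier start. Capitals mark the core of the element, TGCACNC or TGCGCNC, on either strand.
Mt2, chr8:94172368-94172617: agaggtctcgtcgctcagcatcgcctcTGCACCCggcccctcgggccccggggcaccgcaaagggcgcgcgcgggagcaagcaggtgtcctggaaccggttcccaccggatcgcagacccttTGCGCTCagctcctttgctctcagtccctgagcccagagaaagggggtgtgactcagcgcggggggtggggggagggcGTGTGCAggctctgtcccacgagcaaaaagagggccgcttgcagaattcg
Mt1, chr8:94178839-94179081: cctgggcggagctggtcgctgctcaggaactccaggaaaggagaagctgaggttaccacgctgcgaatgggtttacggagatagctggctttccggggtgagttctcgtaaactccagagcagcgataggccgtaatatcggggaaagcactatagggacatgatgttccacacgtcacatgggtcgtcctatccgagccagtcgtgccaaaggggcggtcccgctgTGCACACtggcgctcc
Slc30a1, chr1:191906531-191906766: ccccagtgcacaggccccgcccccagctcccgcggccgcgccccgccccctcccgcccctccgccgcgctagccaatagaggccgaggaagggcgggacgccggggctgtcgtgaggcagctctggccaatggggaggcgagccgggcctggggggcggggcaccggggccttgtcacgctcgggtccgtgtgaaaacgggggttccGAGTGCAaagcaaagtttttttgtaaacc

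The Mt2 window held 3 cores, beginning 223, 128 and 50 bases before the RefSeq start. Mt1 held 1 core, 23 bases before its RefSeq start, and Slc30a1 held 1, 43 bases before it. Of 32851 promoter windows of 250 bases, 21.4% held at least 1 core and 1.26% held at least 3. The windows of Mtf1 and Slc39a10 held 0. Of the 7 genes, 5 had a window. GENCODE places starts beyond the searched windows, by 46 and 242 bases for Mt2, 122 and 152 for Mt1 and 475 for Slc30a1, and the bases between were not searched. A match is a stretch of letters and was not tested for binding.

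Mt1 on chromosome 8 (94179082 to 94180327, plus strand, GRCm38) was lower with anti-IL-38. Its normalized counts in the isotype control tumors were 6126, 7967, 5679, 8060 and 5979. In the anti-IL-38 tumors they ran from 4297 (lowest) through 4406 (median) to 4920 (highest). Every anti-IL-38 library lay below every isotype control library, and the anti-IL-38 libraries lay close together, with a SD of 230 against 1154. The mean log2 difference was −0.58. This is the value that chose the group. In this contrast 1.04% of 16002 genes had groups that did not overlap, among them Mt1 alone of the 7, and 0% of genes were called at an adjusted p under 0.05 with limma, although 1682 had an unadjusted p under 0.05 and DESeq2 called 75.

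Mt2, whose gene lies on the same chromosome upstream of Mt1 (94172664 to 94173568), varied more. The isotype control tumors held 1849, 3377, 1638, 3294 and 1411 normalized counts, and the anti-IL-38 tumors 935 (lowest), 1360 (median) and 1727 (highest). The groups overlapped, although all 6 anti-IL-38 values were below the isotype control median. The log2 difference was −0.70. The log2 differences of the other 5 genes lay between −0.11 for Mtf1 and 0.17 for Slc30a1. In these bulk samples, fewer cells that express a gene and less RNA of it per cell cannot be told apart. All 6 luminal epithelial markers were higher with anti-IL-38 (median log2 difference 0.66), at a summed 1873 to 3603 CPM against 1339 to 2845. All 5 T cell markers were higher (0.86), at 2.47 to 8.13 CPM against 0.372 to 7.79. All 5 fibroblast markers were higher too (0.47), at 1441 to 4401 CPM against 1183 to 3956. The neutrophil markers, 4 of 4 lower (−0.25), were at 21.9 to 54.4 CPM against 46.4 to 165, and 4 of 5 macrophage markers were lower (−0.20), at 1645 to 2328 CPM against 1935 to 2758. The part of these cells in the metallothionein values was not tested.

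**Figure D1:**
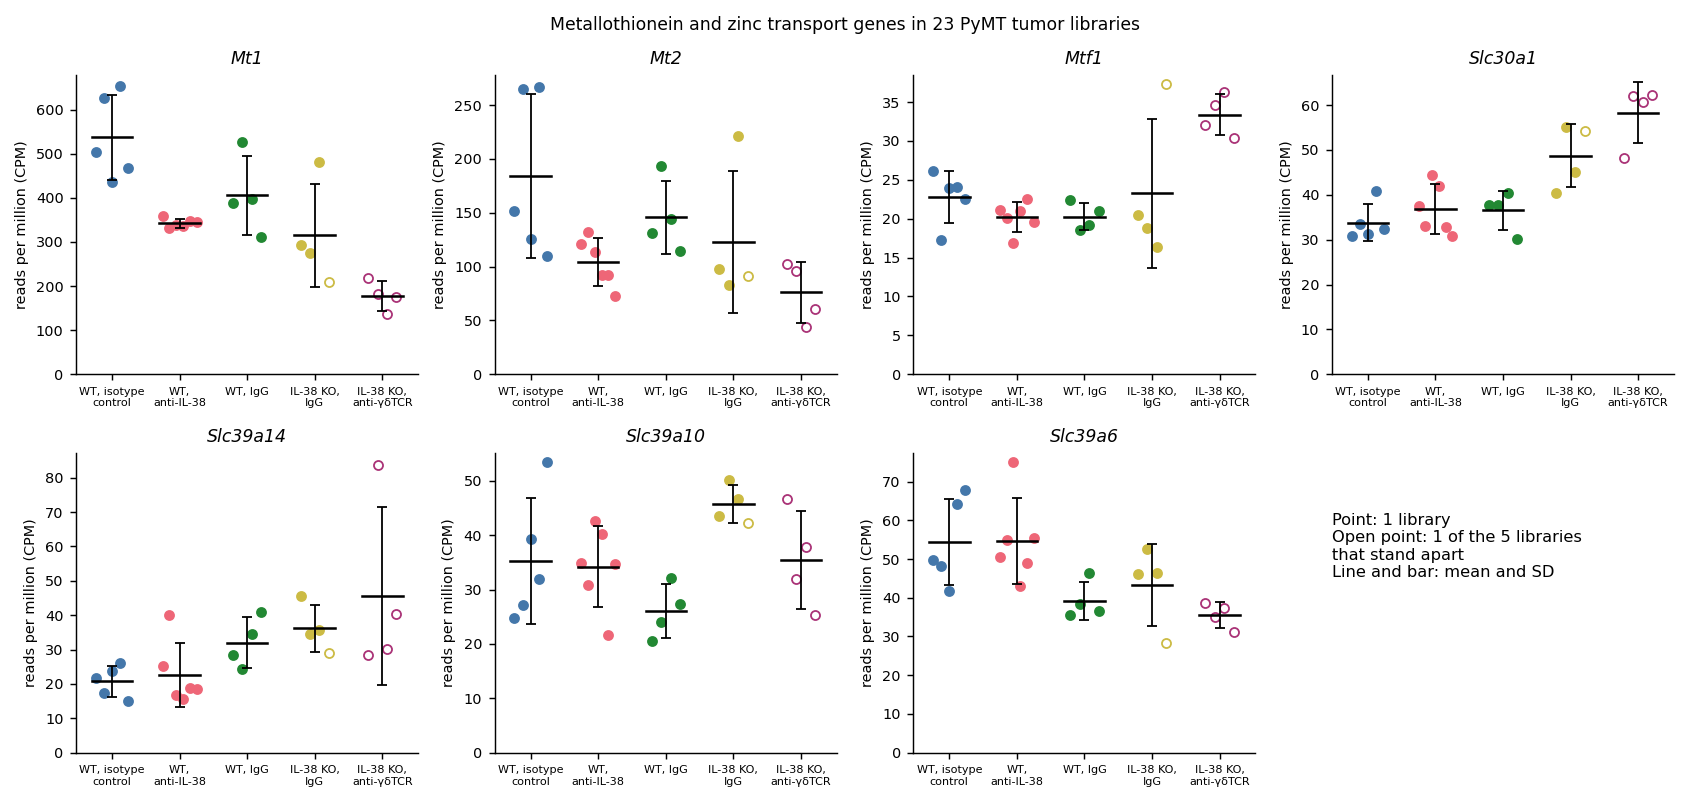
Levels in CPM (vertical axes from 0) of the 7 genes in the 23 libraries of 5 groups; each point is 1 library, open points are the 5 libraries that stand apart, and the black line and bar give the mean and SD. The levels are set across tables that were normalized separately and carry no test; Mt1 lies lowest in the tumors with anti-γδTCR, at 136 to 218 CPM.

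The levels of all 5 groups were set side by side as CPM, for description only, since the tables were normalized separately. Mt1 averaged 537 ± 97.2 CPM (SD, n = 5) with isotype control, 406 ± 89.7 (n = 4) in WT + IgG, 343 ± 10.2 (n = 6) with anti-IL-38, 315 ± 117 (n = 4) in IL-38 KO + IgG and 178 ± 33.6 (n = 4) with anti-γδTCR. Neighbors in this order overlapped at every step. Mt2 kept nearly the same order, from 184 ± 76.4 with isotype control to 76.0 ± 28.0 with anti-γδTCR, and its neighbors overlapped too. Slc39a10 was highest in IL-38 KO + IgG (45.7 ± 3.49) and lowest in WT + IgG (26.0 ± 4.95), Slc30a1 and Slc39a14 were highest with anti-γδTCR (58.3 ± 6.76 and 45.6 ± 25.9), and Slc39a6 was highest in the neutralization experiment (54.4 ± 11.2 with isotype control and 54.6 ± 11 with anti-IL-38).

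The ratio of Mt1 to Mt2 reads ranged from 1.89 to 4.73 across the 23 libraries, with a median of 2.96. Mt1 and Mt2 varied together from library to library. With group means removed, the Pearson r of their log2(CPM + 1) values was 0.83 over 23 libraries. This is a description over libraries that share a protocol, although 5 of them stand apart. Mt1 was the gene most like Mt2 among 14723 genes. For Mt1, Mt2 came after Wdr83os (r = 0.87), and was followed by Lamtor5 (0.80), Trp53cor1 (0.78) and Asb4 (0.77). For Mt2, Ednrb (0.72), Cox19 (0.71), Snhg3 (0.71) and Tmem106c (0.69) followed.

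**Figure D2:**
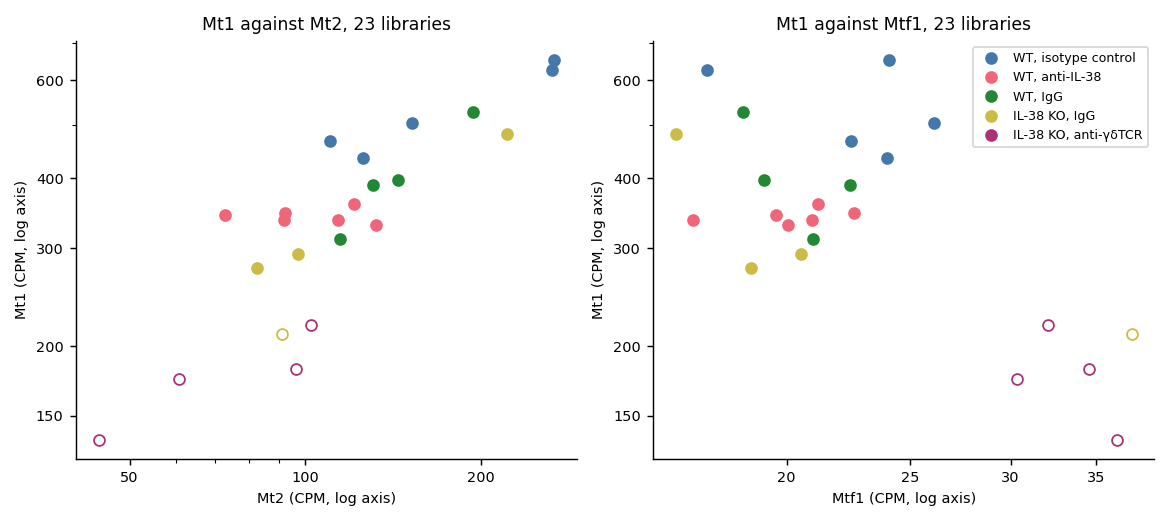
Mt1 level against that of Mt2 (left) and Mtf1 (right) in CPM on log axes, with 1 point per library colored by group and the 5 libraries that stand apart drawn open. Mt1 and Mt2 are high in the same libraries, whereas the 5 open points combine the lowest Mt1 levels with the highest Mtf1 levels.

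The comparison of IL-38 KO with WT tumors asks how lasting loss of IL-38 relates to these genes, and it did not enter the choice of the group. WT stands here for the WT + IgG libraries, without the isotype control tumors of the neutralization experiment. With limma, 0 of the 7 genes passed an adjusted p of 0.05, against 0.00604% of 16563 genes tested, which is the pseudogene Gm10093. At an unadjusted p under 0.05, 2 of the 7 passed (Slc39a10 and Slc30a1), against 12.1% of all genes. edgeR called 0 of the 7 and DESeq2 called 1, Slc39a10, where it called 1.84% of all genes.

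Slc39a10, a ZIP importer of the plasma membrane on chromosome 1 (46807544 to 46892852, minus strand), had the largest difference of the 7. WT tumors held 234, 291, 374 and 318 normalized counts, and IL-38 KO tumors 515, 585, 560 and 515. Every IL-38 KO library lay above every WT + IgG library. The isotype control tumors of the neutralization experiment, also WT, ran from 300 to 685, a range that spans the IL-38 KO values. Against WT + IgG, the log2 difference was 0.85 (SE 0.16), or 1.81-fold, with a limma adjusted p of 0.156. The exact permutation test gave p = 0.0286, the smallest that 4 against 4 libraries allow. Adjusted p-values under the alternatives ran from 0.000859 (DESeq2) to 0.505, and without IL-38 KO + IgG replicate 4 the limma difference was 0.88 (adjusted p = 0.0923).

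Slc30a1, the exporter of the plasma membrane on chromosome 1 (191906767 to 191913247, plus strand), was at 432, 455, 472 and 351 normalized counts in WT and 478, 643, 541 and 660 in IL-38 KO tumors. The lowest IL-38 KO library stood just above the highest WT + IgG library. The isotype control tumors, also WT, ran from 375 to 505 and so overlapped the IL-38 KO values. Against WT + IgG, the log2 difference of Slc30a1 was 0.44 (SE 0.16, limma adjusted p = 0.324, exact permutation p = 0.0286). Without IL-38 KO + IgG replicate 4, the highest library, it was 0.37 (SE 0.16, limma adjusted p = 0.330). Groups that did not overlap were found for these 2 of the 7 genes and for 7.06% of all genes tested.

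The metallothioneins did not pass the test. Mt1 was at 4455, 6372, 4632 and 3609 in WT and 3454, 3218, 5774 and 2552 in IL-38 KO tumors. IL-38 KO replicate 3 was high, above 3 of the 4 WT libraries, while the other 3 IL-38 KO libraries lay below all WT libraries. The log2 difference of Mt1 was −0.38 (SE 0.25, limma adjusted p = 0.542) and ran from −0.22 without IL-38 KO replicate 4 to −0.61 (SE 0.20, adjusted p = 0.319) without the high replicate 3. Mt2 held 1498, 2338, 1681 and 1332 in WT and 1149, 965, 2657 and 1107 in IL-38 KO tumors, with the same library high, and a difference of −0.32 (SE 0.29, adjusted p = 0.676). Without that library it was −0.64 (SE 0.19, adjusted p = 0.312), and without WT replicate 2 it was −0.16.

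Mtf1 on chromosome 4 (124802104 to 124849800, plus strand) was at 223 to 257 in WT tumors. IL-38 KO tumors held 242, 219, 196 and 454, where the high value belongs to replicate 4. Its difference of 0.15 turned to −0.11 without that library. Slc39a14, an importer of zinc and non-transferrin iron on chromosome 14 (70303469 to 70351425, minus strand), differed by 0.21 (SE 0.19) and Slc39a6 by 0.14 (SE 0.19), with groups that overlapped. Without IL-38 KO replicate 4 the Slc39a6 difference was 0.32 (SE 0.14, adjusted p = 0.349).

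**Figure D3:**
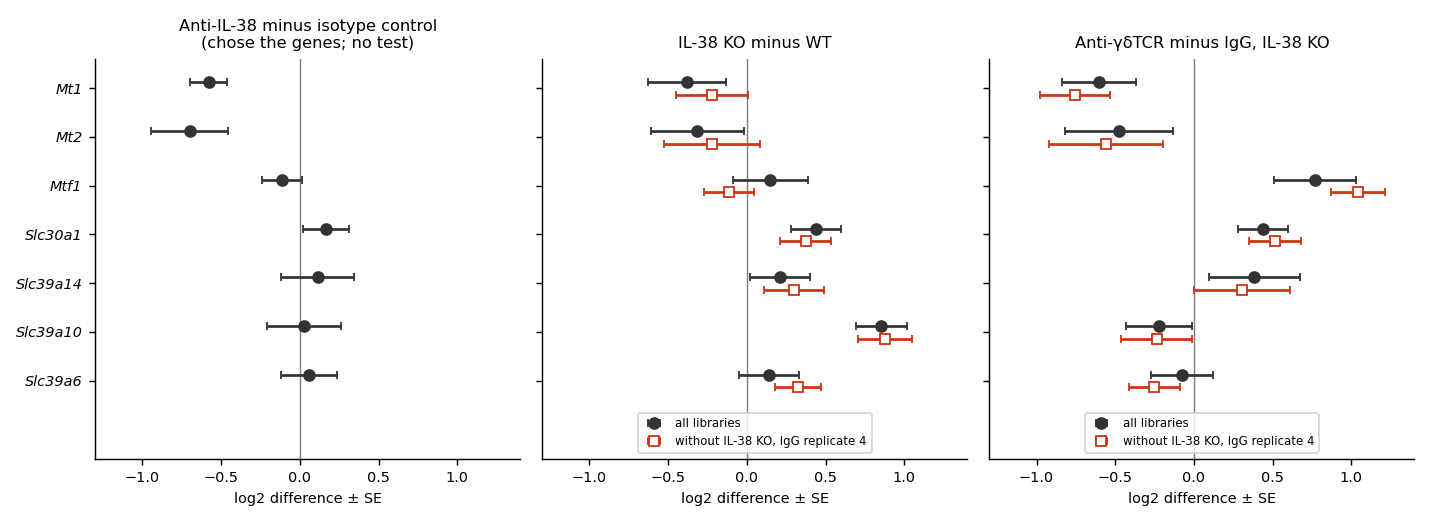
Log2 difference with its SE (horizontal axis) of the 7 genes in the contrast that chose them and in the 2 tested comparisons, with all libraries (filled circles) and without IL-38 KO + IgG replicate 4 (open squares). Slc39a10 stands highest in IL-38 KO against WT at 0.85, and Mtf1 moves from 0.77 to 1.04 under blockade when that library is left out.

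Other zinc genes were also mostly higher in IL-38 KO tumors. Of 22 further genes listed for zinc handling, 14 were tested, and 11 were higher and 3 lower, with a median log2 difference of 0.35 against 0.0053 over all genes. In limma 0 passed the threshold, and 5 higher and 1 lower had an unadjusted p under 0.05, against 12.1% of all genes in both directions together. In 5 of them every IL-38 KO library lay above every WT + IgG library, which held for 3.66% of all genes tested. Without IL-38 KO replicate 4, 12 were higher and 2 lower (median 0.46), and 8 higher and 0 lower had an unadjusted p under 0.05. With all libraries, DESeq2 called Slc30a2 and Slc30a5, both higher, where it called 1.84% of all genes.

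Slc30a2, which loads zinc into vesicles and into milk in mammary epithelium, held 28.9, 40.5, 87.7 and 31.6 normalized counts in WT and 147, 172, 253 and 120 in IL-38 KO tumors. All IL-38 KO libraries were above all WT + IgG libraries, with a log2 difference of 1.94 (SE 0.36) and a limma adjusted p of 0.156. Without WT replicate 3 it passed, at 2.29 with an adjusted p of 0.0352 (0.000571 to 0.487 over the alternatives). The isotype control tumors, also WT, held 56.1 to 171, which overlaps the IL-38 KO values. Slc30a5, a transporter of the secretory pathway, held 205, 150, 226 and 215 in WT and 448, 247, 362 and 288 in IL-38 KO tumors, a difference of 0.73 (SE 0.21, adjusted p = 0.259). Slc30a7, Slc39a3 and Slc39a9, named after their values were seen, were the other genes of the list beyond the 7 whose groups did not overlap.

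Markers of other cell types moved with this comparison. All 5 skeletal muscle markers were higher in IL-38 KO tumors (median log2 difference 2.26), at a summed 10.9 to 379 CPM against 2.0 to 66.7 in WT. All 5 macrophage markers were lower (median −0.67), at 659 to 1761 CPM against 1607 to 2166. IL-38 KO + IgG replicate 4 was the library at 659, and without it the macrophage median was −0.30. All 6 adipocyte markers were lower (median −1.09), at a summed 51.5 to 271 CPM against 295 to 409. Of 5 basal markers, 1 was higher and 4 were lower (median −0.29), at a summed 193 to 270 CPM against 305 to 651. The sums of these 2 lists did not overlap between the groups. Taken singly in normalized counts, 0 of the 6 adipocyte and 1 of the 5 basal markers lay below every WT + IgG library. Groups of single genes did not overlap for 7.06% of all genes tested. Of 5 T cell markers, 1 was higher and 4 were lower (median −1.06), at 3.64 to 8.31 CPM against 6.55 to 12.9, and all 3 red blood cell markers were lower (median −0.75), at 23.9 to 128 CPM against 34.9 to 203. In limma 0 genes of these lists passed the threshold. The luminal epithelial markers overlapped, at 2574 to 2933 against 1942 to 2994 CPM. Without IL-38 KO + IgG replicate 4 the medians were 3.22 for skeletal muscle, −1.48 for adipocyte and −0.40 for basal markers. For T cell and red blood cell markers they were −0.64 and −1.12. None of these lists was at 0 in either group, and their part in the zinc genes was not tested.

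**Figure D4:**
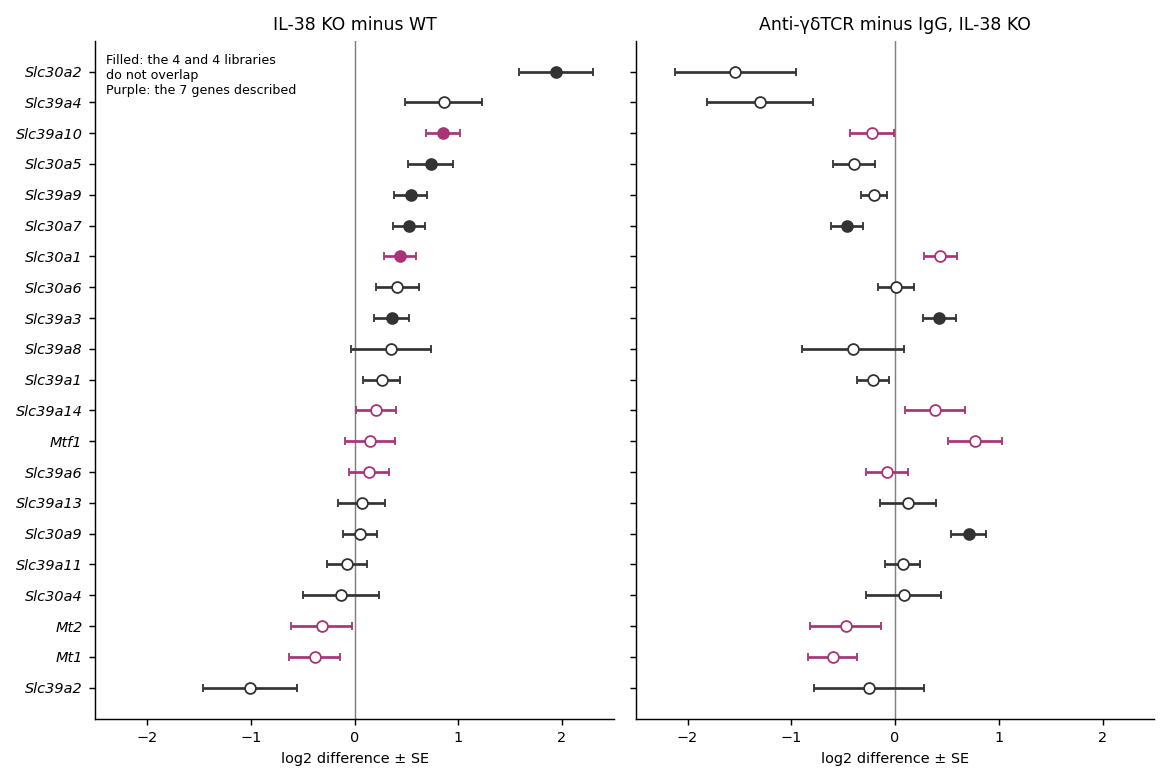
Log2 difference with its SE (horizontal axis) of the 21 tested zinc handling genes in IL-38 KO against WT (left) and in anti-γδTCR against IgG within IL-38 KO (right), ordered by the left panel. Filled points mark genes whose 4 and 4 libraries did not overlap, 7 on the left and 3 on the right, and purple marks the 7 genes described; both panels share the 4 IL-38 KO + IgG libraries.

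Blockade of the γδ TCR was compared with IgG in IL-38 KO tumors, and this shares the 4 IL-38 KO + IgG libraries with the genotype comparison. All 4 blockade libraries belong to those that stand apart, with IL-38 KO + IgG replicate 4 as the only library of that kind without blockade, so among the other 7 libraries blockade and this difference cannot be told apart. With limma, 0 of the 7 genes passed, and 0% of 16481 genes did. edgeR called 0 genes, and DESeq2 called 6.27% of all genes but 0 of the 7. At an unadjusted p under 0.05, 3 of the 7 passed (Mtf1, Mt1 and Slc30a1), against 21.7% of all genes. Without IL-38 KO + IgG replicate 4, Mt1 and Mtf1 passed, where 14.3% of all genes did.

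Mtf1 had the largest difference of the 7 under blockade. IL-38 KO + IgG tumors held 182, 166, 152 and 356 normalized counts, and tumors with anti-γδTCR 336, 339, 413 and 294. IL-38 KO + IgG replicate 4 fell inside the range of the blockade libraries, and the other 3 lay well below it. The log2 difference was 0.77 (SE 0.26, limma adjusted p = 0.116). It was 1.04 (SE 0.17, adjusted p = 0.00165) without replicate 4, and −0.053 with a term for the libraries that stand apart, and its adjusted p ran from 0.00165 to 0.980 over the alternatives. Over all 23 libraries Mtf1 was at 30.4 to 37.4 CPM in those 5 and at 16.4 to 26.1 CPM in the other 18.

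Mt1 was lower with blockade in the values. It was at 2593, 2440, 4461 and 1999 in IL-38 KO + IgG tumors and at 2283, 1783, 1541 and 1689 with anti-γδTCR. Replicate 4 of the IgG tumors again lay inside the range of the blockade group, and the other 3 lay above it. The log2 difference of Mt1 was −0.60 (SE 0.24, limma adjusted p = 0.169, exact permutation p = 0.0571). It was −0.75 (SE 0.22, adjusted p = 0.0460) without replicate 4, and −0.15 with the term for the libraries that stand apart, with adjusted p-values from 0.0317 to 0.952 over the alternatives. Its CPM was 136 to 218 in those 5 libraries and 276 to 654 in the other 18, without overlap.

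Mt2 held 862, 732, 2053 and 867 in IL-38 KO + IgG and 1073, 944, 503 and 589 with anti-γδTCR, so the groups overlapped (log2 difference −0.48, SE 0.34, adjusted p = 0.473). Without IL-38 KO + IgG replicate 3, the high library, the difference was −0.14 (SE 0.27, adjusted p = 0.853) for Mt2 and −0.37 (SE 0.18, adjusted p = 0.353) for Mt1. Slc30a1 was at 359, 487, 418 and 517 in IL-38 KO + IgG and at 505, 608, 689 and 602 with anti-γδTCR, with a difference of 0.44 (SE 0.16, adjusted p = 0.141). Only the lowest blockade library lay within the IgG range. Without IL-38 KO + IgG replicate 4 the Slc30a1 difference was 0.51 (SE 0.16, limma adjusted p = 0.0645). It was 0.21 with the term for the libraries that stand apart. Slc39a14 was at 403, 304, 330 and 276 against 297, 821, 342 and 391, where the blockade library at 821 stood far above the rest (0.38, SE 0.29, and 0.068 without it). Slc39a10 (−0.22, SE 0.21) and Slc39a6 (−0.078, SE 0.20) did not pass the test. Slc39a10 was at −0.38 without anti-γδTCR replicate 1 and at −0.044 without anti-γδTCR replicate 4, and Slc39a6 was at −0.25 without IL-38 KO + IgG replicate 4.

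Among the 14 further zinc handling genes tested, 6 were higher and 8 lower with blockade, with a median log2 difference of −0.21 against 0.022 over all genes. In limma 0 passed, and 2 higher and 3 lower had an unadjusted p under 0.05, against 21.7% of all genes. The groups of 3 did not overlap, against 9.54% of all genes tested. Without IL-38 KO + IgG replicate 4, 2 were higher and 12 lower (median −0.30), and limma called 1, Slc30a9, where it called 14.3% of all genes. Slc30a9, a transporter linked to mitochondrial zinc, went from 280, 308, 257 and 378 to 544, 530, 530 and 396, a difference of 0.71 (SE 0.17, limma adjusted p = 0.066, 0.00585 to 0.747 over the alternatives). Slc30a7, which supplies zinc to the secretory pathway, went from 525, 468, 447 and 432 to 374, 377, 268 and 344, a difference of −0.47 (SE 0.15, adjusted p = 0.107).

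Macrophage markers moved with blockade, too. Of 5, 4 were lower and 1 was higher, with a median log2 difference of −1.25 and a summed 521 to 839 CPM against 659 to 1761. Without IL-38 KO + IgG replicate 4 limma called 4 of the 5, all lower, where it called 14.3% of all genes. IL-38 KO + IgG replicate 4 was the library at 659. All 5 skeletal muscle markers were higher (median 1.34), at 61.3 to 728 CPM against 10.9 to 379. The library at 10.9 was IL-38 KO + IgG replicate 4, and without it the median was 0.40. All 5 basal markers were higher as well (0.56), at 162 to 501 CPM against 193 to 270, as were all 5 T cell markers (0.52), at 3.03 to 9.23 CPM against 3.64 to 8.31. With all libraries limma called 0 genes of these lists. The part of these cells in the metallothionein values was not tested.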

How the data were processed

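Tumors of PyMT mice gave 23 libraries in 5 groups, grouped by their GEO labels. The authors deposited signal values, namely read counts divided by a size factor per library, separately for a table of 19 libraries and a table of 8. The submitters' notes name STAR, HTSeq, DESeq2 and GRCm39, and the study's methods a BlueBee pipeline; their versions were not stated. Dividing by the value of 1 read gave whole reads for 100% of values within 0.0001%. For WT + IgG replicate 1, where 1 read was worth 0.996, rounding cannot be distinguished from whole reads. Both tables hold the 4 IL-38 KO + IgG libraries, and their reads matched for all 47643 genes. The deposited name of anti-γδTCR replicate 3 carries the mark rep, which the labels do not explain. Names, for 47224 genes, and coordinates came from GENCODE M21 on GRCm38, and promoters from RefSeq on GRCm38.p6.

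The genes, the gene lists, the tests and the alternatives were chosen with earlier results of these data known. The main test was limma 3.58.1 (R 4.3.3; two-sided, eBayes with a mean trend) on log2 values of the normalized counts with a pseudocount of 1, for genes averaging at least 5, with Benjamini-Hochberg adjustment over all genes and a threshold of 0.05. Fold changes on this scale understate those of low genes. Each fit held just the groups it compared. Exact permutation tests (two-sided, scipy) of the mean log2 value were run for the 7 genes in 2 comparisons, 14 tests in all. Named genes are the 7, the 3 zinc handling genes with the smallest p in each tested comparison, and the genes whose log2(CPM + 1) over 23 libraries, with group means removed, was most like a member's. The zinc list held 29 genes. Marker lists stood for cell types, and lists for copper handling, glucocorticoid response and acute phase were also counted. edgeR 4.0.16 and DESeq2 1.42.0 on whole reads, other scalings, filters and pseudocounts, the replicate number as a block and leaving out each library were alternatives. edgeR without IL-38 KO + IgG replicate 4 was added after seeing the data. The fits were tested on simulated data with planted differences larger than those of the 7 genes. That check does not show how well differences of their size are found.

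The labels do not say whether libraries of a group came from separate mice, so p-values measure the spread between libraries, which may be technical. No pair of libraries within a group agreed within sampling noise (chi-square per degree of freedom at least 15.9). Since no molecular identifiers were used, limits at 3 counts cover counting error only.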

Additional observations from a re-analysis of the deposited data

Results flagged for a closer look

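A single library stood far from the others of its group, by the gap to its neighbor relative to the group's range, in 4 of 35 groups of values tested. Chance alone flags about 1 in 20. Mt2 in IL-38 KO + IgG replicate 3 was at 2657 normalized counts, the library that was also high for Mt1. Anti-IL-38 replicate 3 was high in normalized counts for Mt1, at 4920, and for Slc39a6, at 1095. In CPM its Mt1 level of 337 lay inside the group's 331 to 360, below the median of 341. Its Slc39a6 level was the highest of the group in CPM too, at 75.1. Slc39a14 in anti-IL-38 replicate 2 was at 525.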

How the results depend on the processing

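Of 133 alternative values of the 7 genes' log2 differences in each tested comparison, 130 kept direction and side of the threshold for IL-38 KO against WT and 125 for blockade. For IL-38 KO against WT, 1 gene was called; DESeq2 called 305 (1 of the 7 and 3 zinc handling genes), edgeR 0, the replicate block 0, and edgeR without IL-38 KO + IgG replicate 4 called 10. Leaving out each library gave 0 to 7, with 7 without IL-38 KO replicate 4 and without WT replicate 3, and 0 to 1 zinc handling genes. Mtf1 (0.15) ran from −0.11 without IL-38 KO replicate 4 to 0.29 as libraries were left out, and was −0.12 in edgeR without that library. For blockade, 0 genes were called; DESeq2 called 1033 (1 zinc handling gene), and edgeR without IL-38 KO + IgG replicate 4 called 2379 (2 of the 7 and 3 zinc handling genes, with Mt1 at −0.83, adjusted p = 0.0317). Leaving out each library gave 0 to 2357 genes, 0 to 2 of the 7 and 0 to 3 zinc handling genes, the highest without IL-38 KO + IgG replicate 4. With a term for the libraries that stand apart, Mtf1 was at −0.053 and Slc39a6 at 0.44; as libraries were left out, Slc39a6 ran from −0.25 to 0.014, above 0 without IL-38 KO + IgG replicate 2 (0.013) and without anti-γδTCR replicate 4. For anti-IL-38 against isotype control, DESeq2 called 75 genes and the replicate block 1, and leaving out each library gave 0 to 6; calls of the 7 and of the zinc list are not given there, since that contrast chose the genes. The cause of these changes was not tested. The replicate block changed no call of the 7 genes, and the deviations of same-numbered libraries had correlations of −0.17 to 0.07. With so few libraries per group this cannot decide whether the numbers pair them, and the main test used no pairing. With group means kept, 1 of the 5 genes most like Mt1 and 2 of the 5 most like Mt2 remained. The lowest level of any of the 7 genes in a library was 15.04 CPM, above the limit at 3 counts.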

Other observations

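Genes of related responses were counted in the same comparisons. Of 8 glucocorticoid-responsive genes, 1 was higher and 7 lower in IL-38 KO than in WT tumors (median log2 difference −0.24 against 0.0053 over all genes). With anti-γδTCR, 7 were higher and 1 lower (0.34 against 0.022). Without IL-38 KO + IgG replicate 4 these 2 medians were −0.12 and 0.19. Of 8 acute phase and STAT3-responsive genes, 4 were higher and 4 lower in IL-38 KO tumors (−0.025), and 6 higher and 2 lower with blockade (0.30). Of 6 tested genes of copper handling, 3 were higher and 3 lower in both comparisons, with medians of −0.070 and −0.057. With all libraries, limma called 0 genes of these lists in either comparison. Without IL-38 KO + IgG replicate 4 it called 1 acute phase and 1 copper handling gene with blockade. Both were lower, and 14.3% of all genes were called there. Unadjusted p under 0.05 was reached in IL-38 KO against WT by 1 glucocorticoid-responsive, 2 acute phase and 2 copper handling genes, where 12.1% of all genes reached it. With blockade 1, 2 and 1 reached it, where 21.7% of all genes did. As a description, 7 of the acute phase genes were higher and 1 lower with anti-IL-38 (median 0.61). Of the glucocorticoid-responsive genes 4 were higher and 4 lower (−0.060), and of the copper handling genes 4 higher and 2 lower (0.16).

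Genes most like the other members, with group means removed, were Gm43712 for Mtf1 (r = 0.93), Stard10 for Slc30a1 (0.72) and Gcnt2 for Slc39a14 (0.89). For Slc39a10 they were Sema3b and the transferrin receptor gene Tfrc (0.87 and 0.86), and for Slc39a6 Adamts18 (0.84). Removing group means leaves in the distance of IL-38 KO + IgG replicate 4 from its group. Mtf1 was at 37.4 CPM there against 16.4 to 20.5 in the rest of that group. The part of that library in these r values was not tested.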
